A study of Mus musculus with 19 samples.

Results

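The delta protocadherins are the protocadherins whose genes lie scattered over the genome, outside the *Pcdha*, *Pcdhb* and *Pcdhg* gene cluster. They were matched by symbol to Ensembl identifiers, and all 9 members looked for (*Pcdh1*, *Pcdh7*, *Pcdh8*, *Pcdh9*, *Pcdh10*, *Pcdh17*, *Pcdh18*, *Pcdh19* and *Pcdh20*) were present among the 41388 gene identifiers of each count table. They were compared between E13.5 brain and adult cerebellum, and between genotypes, to ask whether the effect of reduced Wiz on protocadherin expression is found at the clustered locus or at protocadherins in general. Among the 9 members, only *Pcdh1* lies on the same chromosome as the *Pcdhb* genes. Its distance from them was not examined. Wiz is a zinc finger protein that acts with the histone methyltransferases G9a and GLP.

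RNA-seq counts were available for 16 libraries of FVB mice. Whole brains came from embryos at 13.5 days post coitum, with 3 male *Wiz +/+*, 3 male *Wiz MommeD30/+*, 2 female *Wiz +/+* and 2 female *Wiz MommeD30/+* brains, and cerebellums came from adult males at 56 days post partum, with 3 *Wiz +/+* and 3 *Wiz MommeD30/+*. *MommeD30* is a frameshift null allele of *Wiz* made with ENU, and both genotypes also carry the multicopy GFP transgene of the line in which the allele arose, driven in erythroid cells. Every cell of a *Wiz MommeD30/+* animal is heterozygous, so the model does not separate cell types. Sources used here do not say that samples of a group came from separate litters. Tissue, age and any difference in the handling of the 2 tissues cannot be told apart. In *Wiz MommeD30/+* brains the *Wiz* transcript itself was at 112 to 119 CPM (read count relative to the library's total after TMM scaling) in males and 121 to 123 CPM in females, against 174 to 189 and 177 to 184 CPM in *Wiz +/+*, and in cerebellum it was at 72.0 to 75.0 against 104 to 105 CPM. Total counts ran from 16386029 to 50459755 per library, with the lowest in male *Wiz +/+* brain 2. The tissue labels were checked against marker genes. *Gabra6*, a GABA receptor subunit of granule neurons, was at 900 to 980 CPM in cerebellum and at no more than 0.0235 CPM in E13.5 brain.

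Protocadherins are single-pass membrane proteins with cadherin repeats outside the cell and mostly bind to the same protein on a neighbouring cell. Clustered protocadherins give each neuron a surface identity through choice among alternative promoters. Delta protocadherins instead each have their own gene and are expressed in regional patterns in the developing nervous system, where they take part in cell sorting, axon growth and synapse formation or loss. They are usually split into a delta-1 group (*Pcdh1*, *Pcdh7* and *Pcdh9* here, with *Pcdh11x* as a further one) and a delta-2 group (*Pcdh8*, *Pcdh10*, *Pcdh17*, *Pcdh18* and *Pcdh19*), which differ in the number of cadherin repeats and in motifs of the cytoplasmic tail, and *Pcdh20* is often placed outside both.

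The 9 genes lie on 5 chromosomes of GRCm38. *Pcdh8* (14:79766775-79771312), *Pcdh17* (14:84443563-84539002), *Pcdh20* (14:88464743-88471396) and *Pcdh9* (14:93013410-93890679) lie on chromosome 14, and *Pcdh10* (3:45378398-45435623) and *Pcdh18* (3:49743296-49757325) on chromosome 3. *Pcdh7* lies at 5:57717967-58133230 and *Pcdh19* at X:133582860-133688987. Annotated genes that overlap *Pcdh1*, *Pcdh7*, *Pcdh9*, *Pcdh10* and *Pcdh19* had at most 13 counts in any library. These counts do not show how many reads fell where the genes overlap. Whether reads were counted by strand is not given in the sources used here.

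Promoter sequences are shown for the delta-2 genes, all lower in adult cerebellum than in male E13.5 brain, and for *Pcdh20*, which was higher there. *Pcdh9* was higher there too and *Pcdh7* lower, and their windows are described below but not shown. Each is the 250 bases before the transcription start in RefSeq, GRCm38.p6, 5′ to 3′ in the direction of the gene. Capitals mark ATTGGNT, an inverted CCAAT box with 2 further letters, searched on both strands. These letters were chosen after the sequences had been seen, so their presence is a description.
*Pcdh8*, chr14:79771313-79771562, minus strand: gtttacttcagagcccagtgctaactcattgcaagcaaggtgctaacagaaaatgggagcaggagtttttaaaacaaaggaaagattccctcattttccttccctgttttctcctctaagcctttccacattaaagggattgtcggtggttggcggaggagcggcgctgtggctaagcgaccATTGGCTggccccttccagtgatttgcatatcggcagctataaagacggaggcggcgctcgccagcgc
*Pcdh10*, chr3:45378148-45378397, plus strand: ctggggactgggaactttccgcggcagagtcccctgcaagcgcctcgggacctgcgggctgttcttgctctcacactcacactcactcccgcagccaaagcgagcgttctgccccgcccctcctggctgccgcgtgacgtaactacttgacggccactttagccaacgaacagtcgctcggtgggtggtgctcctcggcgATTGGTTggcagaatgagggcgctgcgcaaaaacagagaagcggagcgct
*Pcdh17*, chr14:84443313-84443562, plus strand: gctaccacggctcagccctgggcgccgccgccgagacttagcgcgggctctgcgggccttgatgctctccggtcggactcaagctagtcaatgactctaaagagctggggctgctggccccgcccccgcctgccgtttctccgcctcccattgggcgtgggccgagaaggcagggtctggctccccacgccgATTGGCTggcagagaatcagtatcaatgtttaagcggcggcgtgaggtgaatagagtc
*Pcdh18*, chr3:49757317-49757566, minus strand: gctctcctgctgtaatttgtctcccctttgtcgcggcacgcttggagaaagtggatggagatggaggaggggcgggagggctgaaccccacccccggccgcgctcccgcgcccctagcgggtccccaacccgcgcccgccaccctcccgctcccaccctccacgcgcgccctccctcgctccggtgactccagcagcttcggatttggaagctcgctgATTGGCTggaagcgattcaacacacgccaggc
*Pcdh19*, chrX:133688994-133689243, minus strand: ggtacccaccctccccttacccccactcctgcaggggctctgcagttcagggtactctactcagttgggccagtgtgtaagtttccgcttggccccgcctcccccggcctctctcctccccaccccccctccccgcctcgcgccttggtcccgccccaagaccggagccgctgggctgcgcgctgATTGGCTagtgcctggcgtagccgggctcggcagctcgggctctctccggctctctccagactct
*Pcdh20*, chr14:88471397-88471646, minus strand: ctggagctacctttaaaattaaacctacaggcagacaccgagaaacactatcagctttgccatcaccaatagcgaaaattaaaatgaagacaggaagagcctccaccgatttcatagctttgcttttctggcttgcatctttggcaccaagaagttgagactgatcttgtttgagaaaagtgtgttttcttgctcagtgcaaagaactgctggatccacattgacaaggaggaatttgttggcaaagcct
Promoters were found for 8 members, and ATTGGNT was in the window of 5 of them, the 5 delta-2 genes, against 14% of the 32851 promoters of this length. The shorter core, ATTGG or CCAAT, was in 7 of 8, *Pcdh9* and *Pcdh20* included, and in 33.8% of all promoters, so the split by group rests on the further letters. A core consensus of CTCF was in 0 of 8 windows and in 2.07% of promoters. The first letter of the match was 32 bases before the start in *Pcdh18* and 68 bases before it in *Pcdh8*, with *Pcdh10*, *Pcdh17* and *Pcdh19* between (50, 58 and 65 bases). *Pcdh7*, *Pcdh9* and *Pcdh20* had no match to the longer letters in this window. Windows of the delta-2 genes held 11 CG dinucleotides (*Pcdh8*) to 23 (*Pcdh18*), and those of *Pcdh9*, *Pcdh7* and *Pcdh20* held 18, 7 and 3, against a median of 6 over all promoters.

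All delta-2 protocadherins were lower in adult cerebellum than in male E13.5 brain, and members outside that group went both ways. In *Wiz +/+* animals, *Pcdh8*, *Pcdh18* and *Pcdh19* were 24.8, 15.8 and 15.4 times lower in cerebellum, *Pcdh10*, *Pcdh17* and *Pcdh7* were 3.51, 2.71 and 1.67 times lower, and *Pcdh9* and *Pcdh20* were 2.50 and 2.89 times higher. A gene was called changed at an adjusted p of at most 0.05 with a fold change under 0.7 or over 1.3. By this rule 8 of the 9 members were called (6 lower and 2 higher), where 69.3% of the 16840 genes tested were called, 32.9% lower and 36.4% higher. Libraries of the 2 tissues did not overlap for 9 of 9 members and for 87.2% of genes. The median log2 fold change was -1.44 over the members and -0.015 over all genes tested. With this background, that members differed between the tissues is not in itself a result about them.

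*Pcdh8* encodes arcadlin, an activity-induced protocadherin that draws N-cadherin into the cell. It was at 50.7, 48.5 and 47.7 CPM in the 3 male *Wiz +/+* brains and at 1.44, 1.88 and 2.57 CPM in the 3 *Wiz +/+* cerebellums. *Wiz MommeD30/+* samples had 50.7, 49.4 and 50.7 CPM in brain and 2.21, 2.76 and 2.62 CPM in cerebellum. No cerebellum came near any brain, and the cerebellar values rest on 40 to 75 counts per library. The log2 fold change was -4.63 ± 0.11 (SE; adjusted p = 2.89e-15) in *Wiz +/+* and -4.28 ± 0.067 in *Wiz MommeD30/+* (adjusted p = 4.21e-16), and 3.24% and 3.54% of genes tested had a lower value.

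*Pcdh18*, whose cytoplasmic tail binds the adaptor Dab1, was at 56.4, 56.6 and 57.7 CPM in male *Wiz +/+* brain and at 2.85, 3.84 and 4.11 CPM in *Wiz +/+* cerebellum. The log2 fold change was -3.98 ± 0.084 (adjusted p = 1.16e-15), and -4.04 ± 0.070 in *Wiz MommeD30/+* (adjusted p = 1.08e-15). *Pcdh19*, the X-linked gene mutated in a form of epilepsy that mainly affects females, encodes a protein that forms a complex with N-cadherin. It was at 90.7, 87.1 and 83.3 CPM in male *Wiz +/+* brain and at 4.65, 5.84 and 6.47 CPM in *Wiz +/+* cerebellum, a log2 fold change of -3.94 ± 0.079 (adjusted p = 6.53e-16). In *Wiz MommeD30/+* animals it was -3.61 ± 0.059 (adjusted p = 6.63e-16). For both genes the lowest brain was far above the highest cerebellum.

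*Pcdh10*, or OL-protocadherin, recruits the WAVE actin regulators and takes part in synapse elimination. It was the member with most reads in E13.5 brain, at 152, 132 and 132 CPM in male *Wiz +/+*, and it was at 36.4, 39.6 and 42.5 CPM in *Wiz +/+* cerebellum. *Pcdh17*, which acts on growing axons through the same regulators, was at 85.7, 72.9 and 76.1 CPM in brain and at 25.6, 29.7 and 31.8 CPM in cerebellum. Log2 fold changes were -1.81 ± 0.065 for *Pcdh10* (adjusted p = 6.01e-13) and -1.44 ± 0.075 for *Pcdh17* (adjusted p = 6.46e-11). Per kb of annotated exon, their lowest *Wiz +/+* cerebellar value was 1.97 CPM (*Pcdh17*). The highest *Wiz +/+* value of the other delta-2 genes there was 0.766 CPM per kb (*Pcdh18*).

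Among delta-1 genes, *Pcdh7*, which binds the phosphatase inhibitor Set, was at 30.2, 25.2 and 29.3 CPM in male *Wiz +/+* brain and at 16.6, 17.0 and 17.7 CPM in cerebellum (log2 fold change -0.74 ± 0.071, adjusted p = 1.08e-07). *Pcdh9* went the other way, from 32.8, 30.7 and 30.9 CPM in brain to 78.2, 81.4 and 76.7 CPM in cerebellum (log2 fold change 1.32 ± 0.047, adjusted p = 5.55e-13). *Pcdh1* (18:38185914-38212053) was at 83.4, 81.0 and 72.4 CPM in brain and at 94.7, 92.8 and 89.0 CPM in cerebellum, and its log2 fold change of 0.23 ± 0.051 stayed within the fold limits despite an adjusted p of 0.000704. Scaling by total counts alone brought *Pcdh1* to 0.015 (adjusted p = 0.784), so scaling decides whether *Pcdh1* passes the test in *Wiz +/+* animals. In *Wiz MommeD30/+* animals its fold of 1.298 lay just under the limit, and it was called with an average count filter of 50 or without male brain 1, cerebellum 1 or cerebellum 3 of that genotype (log2 fold change 0.38 to 0.40). *Pcdh20* was at 4.49, 4.04 and 3.58 CPM in brain and at 12.3, 10.7 and 12.3 CPM in cerebellum, a log2 fold change of 1.53 ± 0.10 (adjusted p = 1.59e-09), from 70 to 237 counts per brain.

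**Figure D1:**
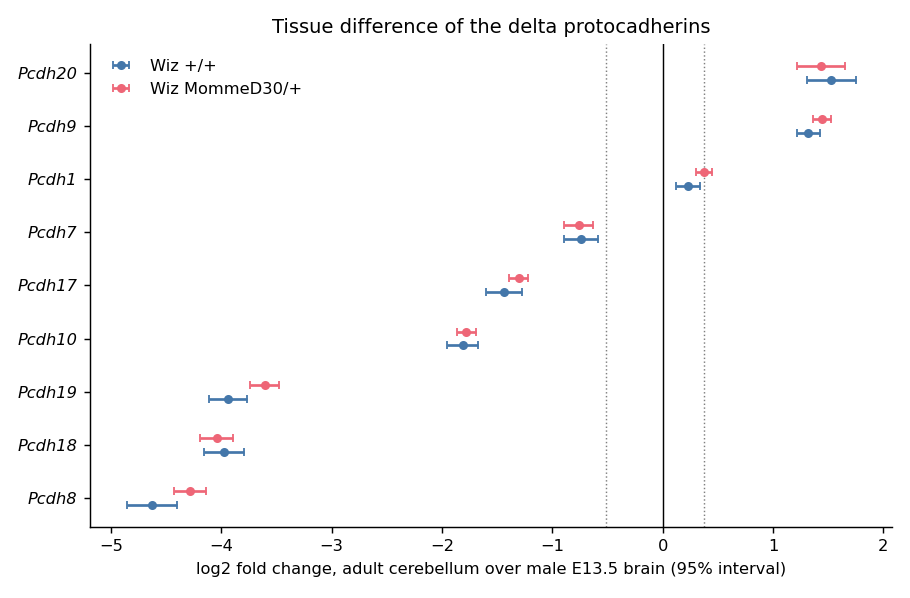
Log2 fold change of adult cerebellum over male E13.5 brain (x axis) for each member (y axis), in *Wiz +/+* and *Wiz MommeD30/+* animals, with bars for the 95% interval and dotted lines at fold changes of 0.7 and 1.3. *Pcdh8*, *Pcdh18* and *Pcdh19* lie between -4.63 and -3.61, and *Pcdh9* and *Pcdh20* are the called members to the right of 0.

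Counts of called genes differed with scaling: 5544 genes were lower and 6124 higher by TMM, 6690 and 5101 by total counts alone, and 6088 and 5583 by the upper quartile, and total counts alone moved the median of all genes to -0.23. The 8 called members stayed called in the same direction under each of the 3 scalings. In *Wiz MommeD30/+* animals the same 8 members were called, against 68.8% of 16967 genes (33.0% lower and 35.8% higher, with 87.8% without overlap), and the split of 5600 lower and 6081 higher genes became 6799 and 5068 by total counts alone and 6229 and 5532 by the upper quartile. Marker lists of cell types differed between the tissues as well. Granule markers (8 of 8 called higher) summed to 464 to 488 CPM in male *Wiz +/+* brain and 7047 to 7099 CPM in cerebellum. Progenitor markers (6 of 7 called lower) summed to 1872 to 2101 CPM and 406 to 414 CPM, and those of meninges and mesenchyme (5 of 6 called lower) to 401 to 457 and 67.0 to 79.8 CPM. Their part in the members' values was not tested, and in bulk tissue fewer cells of a type and less RNA per cell cannot be told apart.

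Levels were compared between genes as CPM per kb of annotated exon. In male *Wiz +/+* brain the order was *Pcdh8* (10.8 CPM per kb), *Pcdh18* (10.6), *Pcdh1* (8.98), *Pcdh10* (8.73), *Pcdh19* (8.32), *Pcdh17* (6.02), *Pcdh9* (4.64), *Pcdh7* (2.66) and *Pcdh20* (0.735). Library ranges overlapped between *Pcdh8* and *Pcdh18*, between *Pcdh1* and *Pcdh10*, and between *Pcdh10* and *Pcdh19*, and all other neighbours were apart. In *Wiz +/+* cerebellum the order became *Pcdh9* (11.6 CPM per kb), *Pcdh1* (10.5), *Pcdh10* (2.49), *Pcdh17* (2.23), *Pcdh20* (2.14), *Pcdh7* (1.61), *Pcdh18* (0.671), *Pcdh19* (0.540) and *Pcdh8* (0.434). There the ranges overlapped between *Pcdh10*, *Pcdh17* and *Pcdh20* in turn, and between *Pcdh18*, *Pcdh19* and *Pcdh8* in turn. *Pcdh8* thus went from first to last. Delta-2 genes made up 72.1 to 72.8% of the summed CPM per kb of the 9 members in male *Wiz +/+* brain and 17.5 to 21.8% in *Wiz +/+* cerebellum, where the sum itself was 31.7 to 32.6 against 59.6 to 64.5 CPM per kb.

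**Figure D2:**
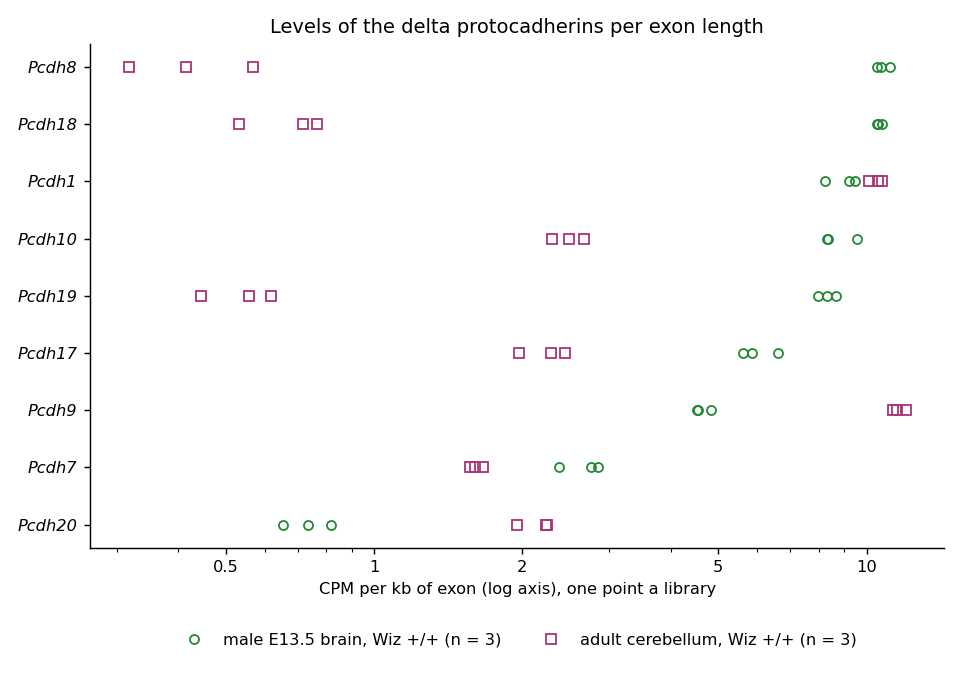
CPM per kb of exon (x axis, log scale) of each member (y axis) in the 3 male *Wiz +/+* E13.5 brains (circles) and the 3 *Wiz +/+* adult cerebellums (squares), 1 point per library. *Pcdh8* is highest in brain at a mean of 10.8 and lowest in cerebellum at 0.434, while *Pcdh1* has means of 8.98 and 10.5.

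No delta protocadherin was called changed between genotypes in either tissue. By edgeR's quasi-likelihood test, 0 of 9 were called in male E13.5 brain (0.184% of 16848 genes), in female E13.5 brain (0.111% of 17152), in E13.5 brain of both sexes (0.352% of 17332) and in adult cerebellum (0.832% of 15979). DESeq2's Wald test also called 0 in each of these. In cerebellum the same rule did not call *Wiz* itself, which was at a log2 fold change of -0.50 ± 0.032 (fold 0.706, adjusted p = 9.9e-08), just inside the fold limit. An unadjusted p under 0.05 was reached by 1, 2, 4 and 3 members, against 8.45, 6.4, 12 and 19.9% of genes. Estimates were below 0 for 8, 7, 6 and 4 of 9 members, against 50, 50, 48.9 and 51.3% of genes. The median log2 fold change of the members was -0.077, -0.16, -0.11 and 0.046.

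The intervals show which changes were within reach. In male brain and in brain of both sexes, the 95% interval of the fold change lay between 0.7 and 1.3 for 9 of 9 members, as for 75.2 and 78.3% of genes tested. In female brain it did for 8 of 9 (63.1% of genes), the exception being *Pcdh20* with a lower bound of 0.690. In cerebellum it did for 7 of 9 (76.4% of genes), the exceptions being *Pcdh8* and *Pcdh19*, at 40 to 75 and 129 to 214 counts, with upper bounds of 1.71 and 1.48. For these 3 values a change past the limits was not excluded by the interval, and the estimate of *Pcdh8* itself was at a fold of 1.301. *Pcdh18* in cerebellum, at 79 to 115 counts, was within the limits.

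*Pcdh7*, *Pcdh10* and *Pcdh20* had estimates below 0 in every comparison between genotypes. The fit of both sexes shares its brains with the fits by sex. *Pcdh10*, with the smaller estimates, is given further below. *Pcdh7* was at 30.2, 25.2 and 29.3 CPM in male *Wiz +/+* and 24.4, 24.9 and 27.4 CPM in male *Wiz MommeD30/+* brain, at 26.6 and 31.6 against 23.6 and 25.4 CPM in females, and at 16.6, 17.0 and 17.7 against 14.6, 15.4 and 14.5 CPM in cerebellum. Genotypes overlapped in male brain, where the second *Wiz +/+* brain was low, and did not overlap in female brain or cerebellum, as held for 36.3 and 22.6% of genes. Log2 fold changes were -0.16 ± 0.068 for male brain, -0.25 ± 0.10 for female and -0.19 ± 0.063 for cerebellum, with adjusted p of 0.559, 0.773 and 0.0906. In one fit of all 16 libraries with sex and tissue as covariates, chosen after the data had been seen, it was -0.19 ± 0.045 (fold 0.874, adjusted p = 0.0346). An adjusted p of at most 0.05 held there for 1.55% of 17538 genes. That p rests on the full set of libraries: leaving out 1 library put it above 0.05 in 12 of 16 cases, and it ran from 0.0144 without male *Wiz +/+* brain 2 to 0.0844 without male *Wiz +/+* brain 1. In the same fit the other delta-1 genes *Pcdh1* and *Pcdh9* were at -0.050 and -0.039 (adjusted p = 0.491 and 0.675), and *Pcdh11x*, *Pcdh12* and *Pcdh15*, which are no members, at -0.20, 0.073 and 0.023 (adjusted p = 0.0961, 0.751 and 0.933).

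*Pcdh20* was at 12.3, 10.7 and 12.3 CPM in *Wiz +/+* and at 9.20, 10.1 and 9.30 CPM in *Wiz MommeD30/+* cerebellum, without overlap. Its log2 fold change was -0.29 ± 0.080 (fold 0.820) with an adjusted p of 0.0465, which 5.25% of genes reached, and the fold lay within the limits, so it was not called. Over the alternatives the adjusted p ran from 0.0191 to 0.193. It was 0.118 by DESeq2, and 0.155, 0.193, 0.157 and 0.126 without *Wiz +/+* cerebellum 1 or 3 or *Wiz MommeD30/+* cerebellum 1 or 3. In E13.5 brain *Pcdh20* was at 3.58 to 4.49 CPM in male *Wiz +/+* and 3.27 to 4.03 CPM in male *Wiz MommeD30/+* samples, a log2 fold change of -0.18 ± 0.12 (adjusted p = 0.744). In female brain it was at 3.64 and 4.17 against 3.31 and 3.63 CPM, without overlap (-0.18 ± 0.15, adjusted p = 0.894). In the fit of all 16 libraries it was at -0.23 ± 0.063 (adjusted p = 0.0817, ranging from 0.0374 to 0.194 over alternatives).

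Other members showed smaller or less regular differences. *Pcdh1* was at 84.4 and 86.7 against 75.7 and 78.0 CPM in female brain (log2 fold change -0.16 ± 0.052, adjusted p = 0.773), but at -0.081 ± 0.052 in male brain and 0.064 ± 0.034 in cerebellum. *Pcdh9*, *Pcdh10* and *Pcdh17* had log2 fold changes of -0.11, -0.10 and -0.11 in brain of both sexes (adjusted p = 0.410, 0.385 and 0.440) and of 0.072, -0.049 and 0.046 in cerebellum. *Pcdh8* and *Pcdh18* were at 0.0012 and 0.012 in brain of both sexes. In cerebellum *Pcdh8* was at 0.38 ± 0.19 and *Pcdh19* at 0.31 ± 0.12 (adjusted p = 0.273 and 0.152), with overlapping genotypes. Both values moved with single *Wiz +/+* cerebellums. Without the first, the lowest of its group for these genes, they were 0.20 and 0.19, and without the third, the highest, they were 0.62 and 0.42.

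**Figure D3:**
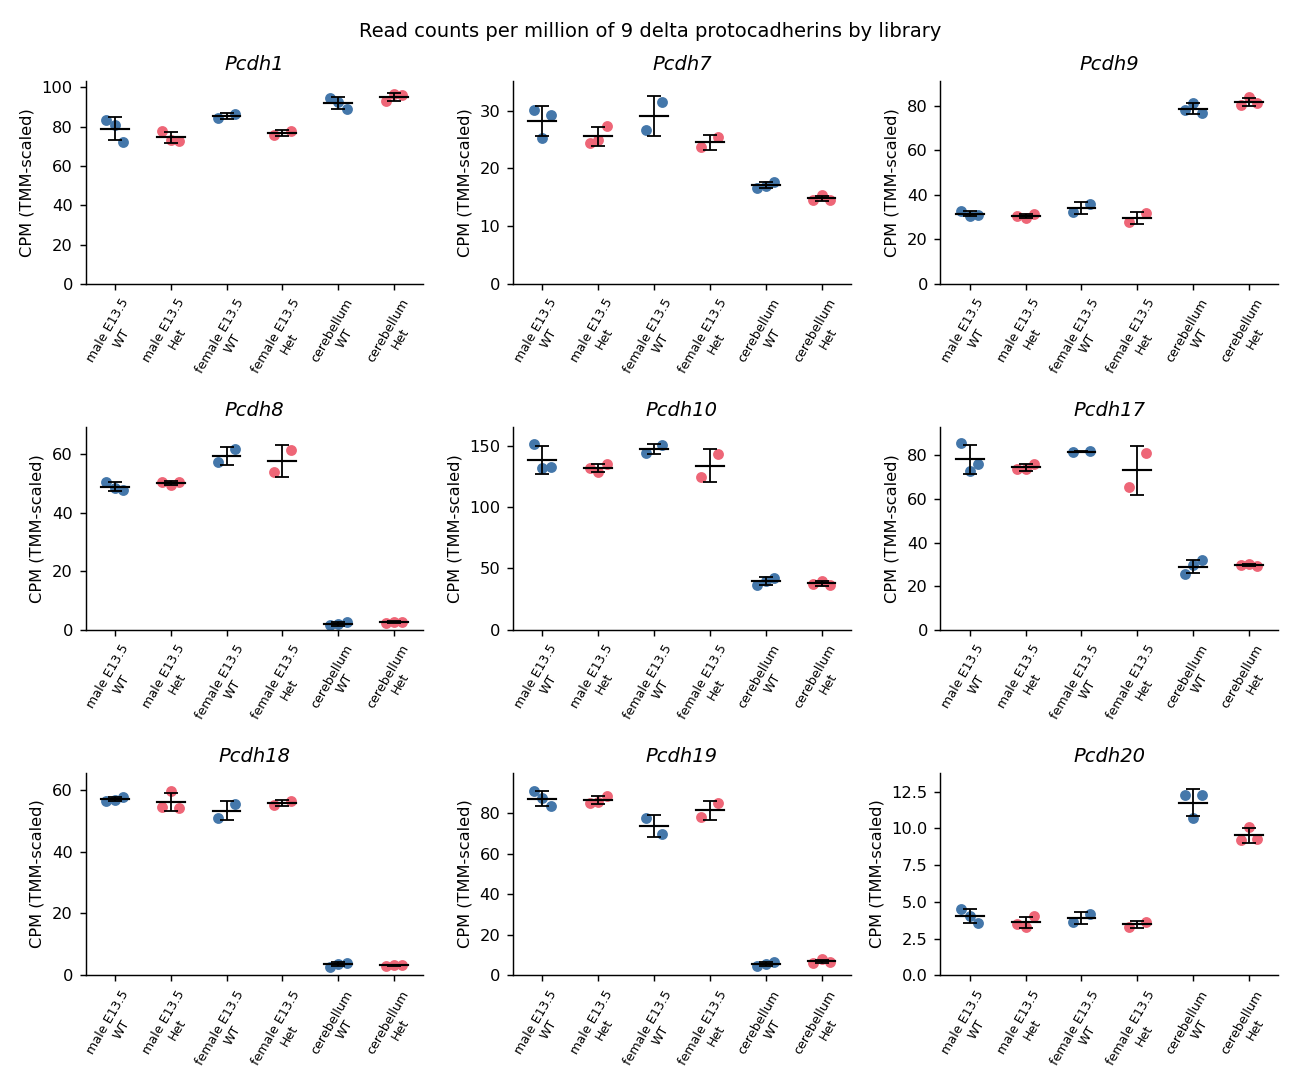
TMM-scaled CPM (y axes, from 0) of each member in the 6 groups (x axes), *Wiz +/+* (WT) in blue and *Wiz MommeD30/+* (Het) in red, 1 point per library, with bars for the mean and SD (n = 3, or 2 in female brain). In *Pcdh8*, *Pcdh18* and *Pcdh19* both cerebellum groups lie near 0, and genotypes lie close together within each tissue.

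In female brain 7 of the 9 members did not overlap between genotypes (36.3% of genes did not, with 2 libraries per genotype), whereas 0 of 9 were apart in male brain (12.3% of genes) and 2 of 9 in cerebellum. Markers of cell types and regions moved with genotype in the same 4 female libraries, though none was called. All 7 progenitor markers had estimates above 0 (5 without overlap, summed 1668 to 1947 CPM in *Wiz +/+* and 2073 to 2152 CPM in *Wiz MommeD30/+*). All 4 midbrain and hindbrain markers were below 0 (3 without overlap, 137 to 183 and 134 to 137 CPM), as were all 7 blood markers (6 without overlap, 1286 to 1316 and 1189 to 1219 CPM). Their part in the members' values was not tested. A genotype by sex term was called for 0 of 9 members and 0 of 17620 genes (0.0%). By unadjusted p it was under 0.05 for 0 members and 3.98% of genes, and DESeq2's Wald test called 0 members. A genotype by tissue term in males was called for 0 of 9 members, where 0.26% of 17337 genes were called. Its values for *Pcdh19* and *Pcdh1* were 0.32 ± 0.12 and 0.14 ± 0.065 (adjusted p = 0.365 and 0.494), the 2 members with an unadjusted p under 0.05 (9.72% of genes). DESeq2's Wald test called 0 members for this term too. Of 21 beta genes of the cluster, 6 were called for it.

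Set beside the delta genes, the beta genes of the cluster gave other counts in the same fits. Of 21 beta genes tested, 12 were lower in male brain, 5 in female brain, 17 in brain of both sexes and 5 in cerebellum, with none higher. Over all genes, 0.184, 0.111, 0.352 and 0.832% were called in these fits. Their median log2 fold changes were -0.71, -0.95, -0.81 and -0.16, where all genes were centred near 0. In cerebellum *Pcdh20* (-0.29) and *Pcdh7* (-0.19) lay below that beta median, and the other members above it. The beta gene with the smallest p was *Pcdhb20* in male brain (fold 0.574, adjusted p = 0.000138), *Pcdhb17* in female brain (fold 0.506, adjusted p = 0.0140) and in both sexes (fold 0.546, adjusted p = 2.48e-06), and *Pcdhb14* in cerebellum (fold 0.634, adjusted p = 0.000567). The counts for single brains are less stable than these values: without either female *Wiz MommeD30/+* brain 0 beta genes were called in females, and without the first male *Wiz +/+* brain 5 were in males. Beta genes are near-identical in places, so reads could be assigned to the wrong one. The study named the beta genes from these samples, so their count is not independent evidence of their direction, and the difference between the groups of genes was not tested as such.

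**Figure D4:**
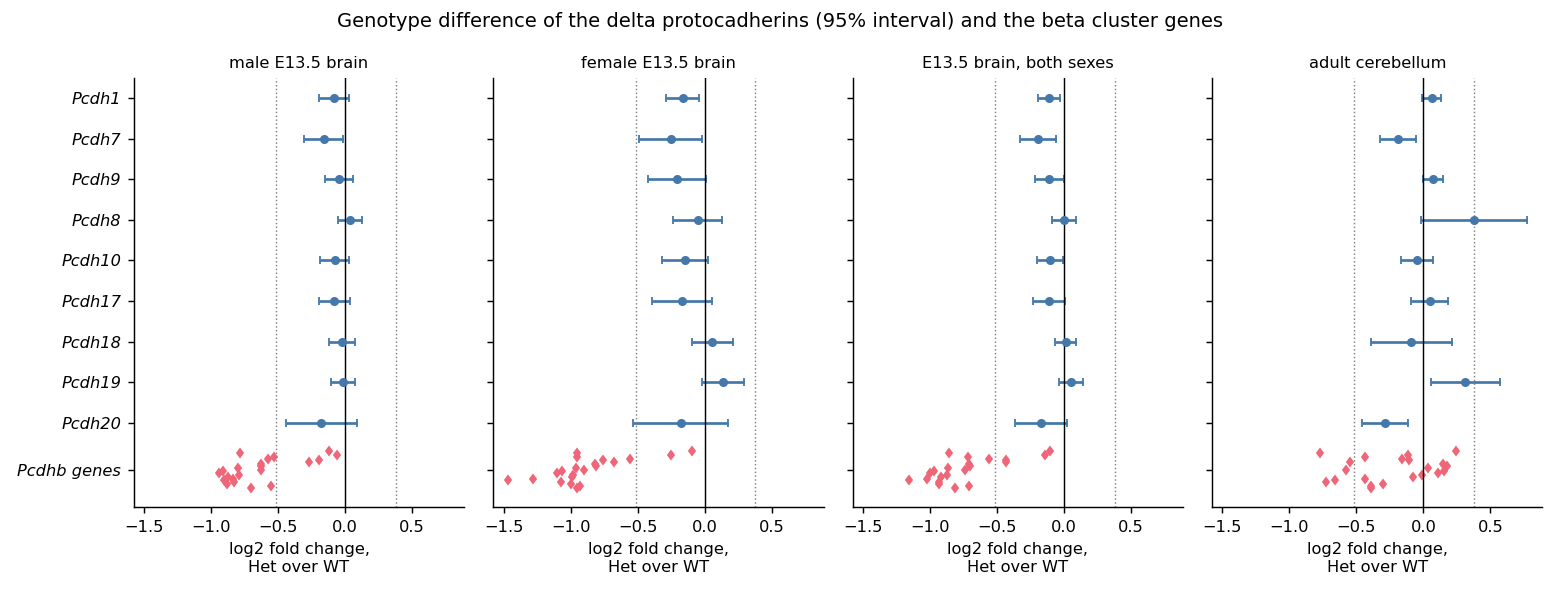
Log2 fold change of *Wiz MommeD30/+* (Het) over *Wiz +/+* (WT) (x axes) in 4 comparisons, for each delta protocadherin with its 95% interval (blue) and for the 21 beta cluster genes as single points (red, spread vertically only for legibility), with dotted lines at fold changes of 0.7 and 1.3. Members lie between -0.29 and 0.38, and beta genes have medians of -0.71, -0.95, -0.81 and -0.16.

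In cerebellum, blood markers moved with genotype. Of 5 tested, 4 were called higher in *Wiz MommeD30/+* (*Alas2*, *Hba-a1*, *Hba-a2* and *Hbb-bs*), where 0.832% of genes were called. The list of 7 summed to 160 to 250 CPM in *Wiz +/+* and 283 to 522 CPM in *Wiz MommeD30/+*. Of 5 oligodendrocyte markers, 4 had estimates below 0 and 3 had no overlap between genotypes. They summed to 4609 to 4974 CPM in *Wiz +/+* and 4324 to 4618 CPM in *Wiz MommeD30/+*. Of 7 progenitor markers, 6 were below 0, 2 of the 7 without overlap (406.2 to 414.3 and 379.3 to 415.5 CPM). No marker of these 2 lists was called. Without the fold limits 3 oligodendrocyte and 2 progenitor markers passed, against 5.25% of genes. The second *Wiz MommeD30/+* cerebellum also had 952 CPM of the choroid plexus gene *Ttr*, where the highest of its group had 2040. Their part in the members' values was not tested. Without that library the log2 fold changes of *Pcdh7* and *Pcdh20* were -0.22 and -0.33, against -0.19 and -0.29 with it.

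Genes that work with the delta protocadherins were taken as a list of 22: the WAVE complex, cytoplasmic partners, 2 classical cadherins, and genes that act with *Pcdh10* in synapse elimination. None was called between genotypes in any of the 4 comparisons, by either test, and their median log2 fold changes were -0.032, -0.014, -0.020 and 0.016. Between tissues 13 were called in *Wiz +/+* animals, 6 lower and 7 higher, a share below the 69.3% of all genes, so the count is not a result about these genes. The lower ones were led by *Cdh2* (N-cadherin, log2 fold change -1.87), *Set* (-1.61), *Cdh11* (-1.58) and *Mdm2* (-0.78), the ubiquitin ligase of the elimination pathway. The higher ones were led by *Mef2d* (2.02), *Cyfip2* (1.81), *Wasf3* (1.59) and *Mef2a* (1.15), of which *Cyfip2* and *Wasf3* encode WAVE complex subunits and the *Mef2* genes encode activity-dependent transcription factors. In *Wiz MommeD30/+* animals the counts were also 6 and 7.

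The other large cadherins outside the cluster were 0 of 11 called between genotypes in each of the 4 comparisons (0.111 to 0.832% of genes). Between tissues in *Wiz +/+* animals 10 of 11 were called, 8 lower and 2 higher. Of all genes, 69.3% were called there, 32.9% lower and 36.4% higher, and the list was not tested as a set. *Pcdh11x*, *Pcdh12* and *Pcdh15* were lower in cerebellum by log2 values of -2.54, -3.31 and -1.23. *Celsr1*, a planar polarity gene, was lower (-5.57), as were *Fat4* (-5.03) and its ligand *Dchs1* (-3.84), while *Fat2*, expressed in granule neurons, was higher (9.72) and so was *Fat1* (0.94).

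Deviations within groups were compared between members. After each group's mean was removed from log2 CPM, 31 of the 36 pairs had a Pearson r above 0 over the 16 libraries, with a median of 0.503, where 50.1% of all pairs of the 17956 genes were above 0 with a median of 0.001. The 36 pairs share genes and libraries and are a description. The highest were *Pcdh10* with *Pcdh17* (0.929), *Pcdh8* with *Pcdh19* (0.854) and *Pcdh8* with *Pcdh18* (0.851), and the lowest was *Pcdh1* with *Pcdh18* (-0.295). All points share library depth and dissection, and the largest deviations of *Pcdh8* are from 40 and 72 counts. Each female group has 2 libraries, whose deviations from the group mean are mirror images, and these enter the r values above. In female *Wiz MommeD30/+* brain the first library was below the group mean for 9 of 9 members. That by itself puts the second above it for all 9.

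**Figure D5:**
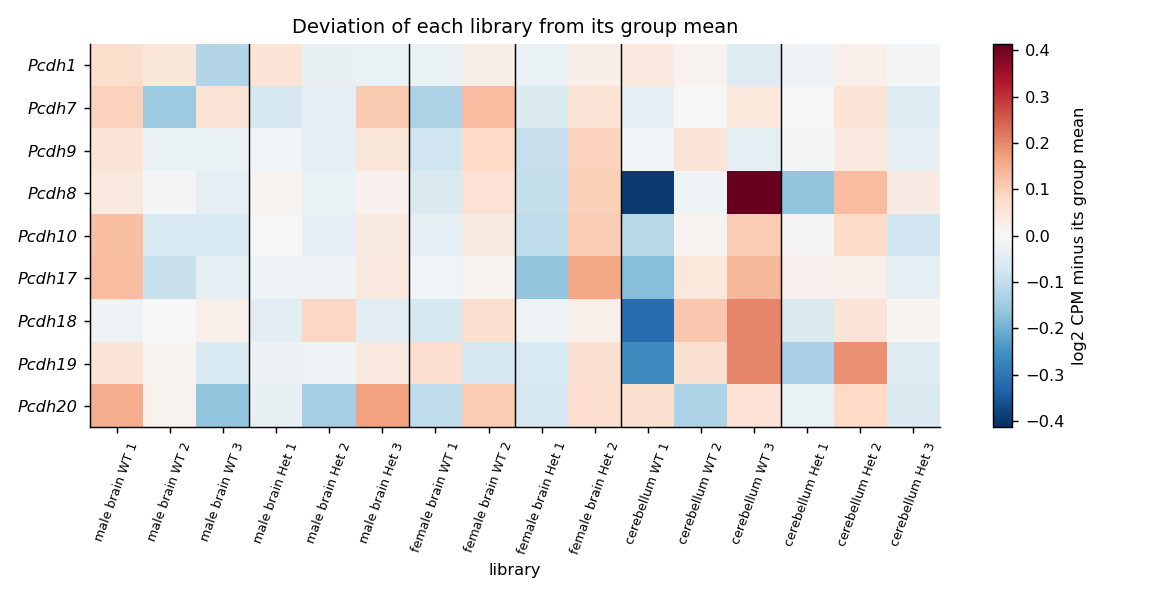
Deviation of log2 CPM from the group mean (colour) for each member (rows) in each of the 16 libraries (columns), with black lines between groups. The first *Wiz +/+* cerebellum is below its group mean for 7 of 9 members and the second *Wiz MommeD30/+* cerebellum above it for 9 of 9.

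Genes whose pattern over all 16 libraries was most like that of a member, among 17956 genes, were named by the highest Pearson r of log2 CPM. They were *Dtx1*, *Ccdc106* and *Fam241b* for *Pcdh1* (r of 0.968, 0.960 and 0.954), *Lrrn3*, *Tmem132d* and *Gm4425* for *Pcdh7* (0.985, 0.979 and 0.978), and *Ryr2*, *Dnajc5* and *Tmem63c* for *Pcdh9* (0.999, 0.998 and 0.998). For *Pcdh8* they were *Nkap*, *Minar2* and *Runx1t1*, all at 0.998. *Tanc2*, *Reep1* and *Vstm2b* were at 0.998 for *Pcdh10*. *Pcdh17* was most like *Pcdh10* (0.997), then *Zc2hc1a* and *Cobl*. For *Pcdh18* they were *Igf2bp1*, *Iqgap3* and *Mex3b* (0.999), for *Pcdh19* *Zik1*, *Ralgps2* and *Srsf3* (0.999), and for *Pcdh20* *Man2c1*, *Stambpl1* and *Cyp2u1* (0.994, 0.992 and 0.992). The 16 points fall into 2 tissues, so r mostly follows the difference between them, and no p is given.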

How the data were processed

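PolyA RNA of E13.5 brain and adult cerebellum was sequenced as 100 bp single-end reads, mapped to mm10 with TopHat 2.0.11 and counted over gene exons with htseq-count 0.6.1. What the authors deposited are unnormalized counts, with a whole number of reads for every Ensembl gene in each library. The 3 ChIP-seq samples were not analysed here. Of 41388 identifiers, 40340 were matched to symbols in GENCODE M21 (GRCm38). Counting errors at 16386029 to 50459755 counts per library are small except for members under 100 counts.

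Each comparison was fitted on its own libraries with edgeR 4.0.16 (R 4.3.3): TMM scaling, filterByExpr with a minimum count of 10, the quasi-likelihood test and Benjamini-Hochberg adjustment over all genes. The study's limits were used (adjusted p of at most 0.05, fold under 0.7 or over 1.3), and adjusted p alone for genotype by tissue and genotype by sex terms. Male, female and both-sex brain (sex as a covariate), cerebellum, and cerebellum against male brain within each genotype were compared. Intervals are 95%. Log2 CPM used a prior count of 2. Tables and figures were made with Python 3.11.15. Fits were tested on simulated data with planted changes larger than any member's genotype estimate. That test does not measure power for differences of the members' size.

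Members and lists were chosen with earlier results of these data known. Named genes were all members, *Wiz*, 3 further protocadherins, the beta gene with the smallest p per genotype comparison, up to 4 called genes per direction of the related lists, the 3 genes most like each member, and markers that moved with a result. Alternatives were DESeq2 size factors, DESeq2 1.42.0, no filter, an average count of at least 50, a replicate block, no fold limits, all 16 libraries in one fit, total counts, the upper quartile, and leaving out each library. Replicates of a group differed by more than sampling noise (chi-square over its degrees of freedom, 2.11 to 11.2), and p-values measure the spread between these samples.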

Additional observations from a re-analysis of the deposited data

How the results depend on the processing

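Members gave 1188 values under alternatives, with 46 changes of sign, 0 of them in a called value. In the main fits the called values were all tissue differences, the smallest a log2 fold change of -0.74 (*Pcdh7* in *Wiz +/+*). Their signs had little room to change, so that 0 says nothing about genotype. Removing the fold limits leaves the estimates as they are. No member was called between genotypes while the fold limits were kept. Without the limits the cerebellum comparison called 1 delta gene (*Pcdh20*), 9 beta genes and 1 large cadherin, where 5.25% of all genes were called. Also without them, the tissue comparison in *Wiz MommeD30/+* called 21 partners, where 14789 of 16967 genes were called. That count is therefore not a result about the partners. Without the low count filter 1 partner was called for the genotype by tissue term, where 416 of 26499 genes were called. Same-numbered samples did not deviate alike from their group means (r of -0.13 to 0.02, with pairs of brain and cerebellum included). With 2 or 3 samples per group, this cannot exclude a shared litter or batch. With the replicate number as a block, 6 beta genes were called in male brain and 0 in female brain, and the adjusted p was 0.056 for *Wiz* in female brain, 0.0592 for *Pcdh20* in cerebellum and 0.0518 for *Pcdh7* over all libraries.

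Beta genes called in female brain were 13 by DESeq2 and 18 in a fit of all 16 libraries. Leaving out 1 library gave 5 to 12 beta genes in male brain, 0 to 18 in female brain (18 without *Wiz +/+* 1, 12 without *Wiz +/+* 2 and 0 without either *Wiz MommeD30/+*) and 3 to 5 in cerebellum (3 without *Wiz +/+* 3 or *Wiz MommeD30/+* 3). The adjusted p of *Wiz* in female brain was 0.424 and 0.313 without *Wiz MommeD30/+* 1 and 2.

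Signs turned for members near 0. In brain of both sexes *Pcdh8* was at -0.000584 with DESeq2 size factors, -0.000656 by DESeq2, -0.000974 without a filter and -0.0013 with the replicate block. With 1 library left out, log2 fold changes in male brain ran from -0.0687 to 0.000969 for *Pcdh18* and from -0.0488 to 0.0169 for *Pcdh19*. In female brain they ran from -0.152 to 0.0403 for *Pcdh8* and -0.011 to 0.126 for *Pcdh18*, and in both sexes from -0.0246 to 0.039 and from -0.019 to 0.0283. In cerebellum they ran from -0.106 to 0.00628 for *Pcdh10*, -0.0392 to 0.116 for *Pcdh17* and -0.236 to 0.0168 for *Pcdh18*.

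Calls over all genes moved more. Male brain had 31, with 175 without a filter, 20 without *Wiz +/+* 1 and 117 without *Wiz MommeD30/+* 3. Female brain had 19, with 32 by DESeq2, 3 with the block, 54 in the fit of 16 libraries and 0 to 261 with 1 left out. Both sexes had 61, and 101 without a filter. Cerebellum had 133, with 75 by DESeq2, 211 without a filter, 839 without fold limits, 66 in the fit of 16 libraries, 70 without *Wiz +/+* 3 and 83 without *Wiz MommeD30/+* 1. The genotype by tissue term had 45, with 122 by DESeq2, 416 without a filter, 13 with the block and 14 to 103 with 1 left out. The genotype by sex term had 0, with 1 by DESeq2, 1 without a filter and 13 without female *Wiz +/+* 1. The fit of 16 libraries had 94, and 50 with the block. The cause of these changes was not tested. The widest intervals between genotypes were those of *Pcdh8* and *Pcdh18* in cerebellum and *Pcdh20* in female brain, and depth was not separated there from the spread between libraries.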
